A study of Arabidopsis thaliana with 4 samples.

Results

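Cytosolic ribosomal protein genes encode the proteins of the ribosomes that translate nuclear transcripts in the cytosol of the plant cell. A list of 57 loci of Arabidopsis thaliana, 36 for proteins of the large (60S) subunit and 21 for proteins of the small (40S) subunit, was read on 4 Affymetrix arrays. Members were the loci of that list that the array's annotation gives a probe set, and 26 of the 57 had a probe set of their own, 17 for the large and 9 for the small subunit. Another 7 loci were annotated only on 5 probe sets that name several genes, which were left out of the values by gene, and 24 had no probe set in the annotation used here. In all, 13287 loci had a probe set naming 1 gene. Among the loci without a probe set of their own were STV1, ATL5, PFL, RPS13A, RPS6, SAC52 and P40, so these well-studied ribosomal protein genes are not analysed here. Each measured locus had 1 probe set, of the type named without a letter for shared hybridisation.

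The arrays held total RNA of Col-0 seedlings, 10 days old, raised on Murashige-Skoog salts in long days at 23 °C. There were 2 arrays of wild-type plants, numbered 1b and 2 in the labels, and 2 arrays of 35S:miR396 plants, numbered 1 and 2, in which the microRNA miR396 is expressed from the 35S promoter of cauliflower mosaic virus, a promoter active in most plant tissues. The labels do not say whether the 2 arrays of a genotype came from separate plants or cultures, nor how many transgenic lines were used, and a p-value therefore reflects only how far these arrays scatter, which could be technical variation. Arrays 1b and 1 are called number 1 here and both arrays 2 are called number 2. Seedlings hold many cell types, and in such RNA fewer cells of a type and less RNA per cell cannot be told apart.

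A ribosome holds 1 copy of nearly every ribosomal protein, and in Arabidopsis each protein is encoded by a small family of near-identical genes, the products of which can replace each other in part. Large-subunit proteins surround the centre where peptide bonds form and the tunnel through which the new chain leaves, and small-subunit proteins surround the site where the messenger is decoded. Growing and dividing cells make many ribosomes, and mutants in several of these genes in Arabidopsis have pointed or narrow leaves, while miR396 is known for limiting cell proliferation in leaves. The annotation used here gives a gene name to only 1 of the 26 measured loci, PGY1 (AT2G27530). The protein named beside any other locus is background from the known Arabidopsis family, not a value of these files. No sequence of these genes or proteins was at hand, so none is shown.

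Signals are probe set signals on a linear scale, divided here by a factor per array so that all arrays share the median signal of 71.1, and are called scaled signals. The medians before that were 72.8 and 71.3 on wild type 1b and 2 and 60.5 and 81.3 on 35S:miR396 1 and 2, so the wild-type arrays hardly moved and the 35S:miR396 arrays moved by 0.23 and -0.19 on the log2 scale. Mean scaled signals of the 26 genes lay between 198 and 6312, and 22 of them had a mean of at least 1000. All 26 stood above the filter on low signals, and apart from AT1G07070 (L35a), AT2G19740 (L31) and AT4G10450 (L9) they ranked above 89.7% or more of the 15923 probe sets tested. Signals of different probe sets are not comparable, so no order of abundance among the genes is drawn.

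The comparison of the genotypes asks whether transcripts of ribosomal proteins differ when miR396 is overexpressed. None of the 26 genes passed the test, and most stood close to their wild-type signal. Over the 26, the median log2 difference of 35S:miR396 from wild type was -0.05, against 0.00 over all probe sets tested, and the extremes were -0.24 for AT3G05560 and 0.08 for AT3G07110. In limma, 0 of 26 genes passed a Benjamini-Hochberg adjusted p of 0.05, where 0% of all probe sets passed, and 0 of 26 lay under an unadjusted p of 0.05, against 104 of the 15923. The 95% interval of a gene reached between 0.34 and 0.50 log2 units to either side. With 2 arrays a genotype, smaller differences could not be told from 0 in this fit. It had no block, so differences between number 1 and number 2 counted as scatter within a genotype. With a replicate block in limma, 18 of the 15923 passed the adjusted threshold (0 with quantile normalization), and 0 of 26 members did. Under an unadjusted p of 0.05 lay 902 of the 15923 in the block fit with centring, and the members among these were not counted.

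AT3G05560, for the large-subunit protein L22, had the most negative moderated t of the members. It was at 2658 and 2702 in wild type 1b and 2 and at 2365 and 2184 in 35S:miR396 1 and 2. Both 35S:miR396 arrays lay below both wild-type arrays, and the fitted log2 difference was -0.24 with a 95% interval from -0.59 to 0.11 (limma, adjusted p = 1.00, unadjusted p = 0.142). With any 1 array left out it stayed between -0.30 and -0.18. AT2G19730, for L28, was at 2766 and 2710.1 in wild type 1b and 2 and at 2655 and 2282 in 35S:miR396 1 and 2, a log2 difference of -0.15 with a 95% interval from -0.54 to 0.23. Its chromosomal neighbour AT2G19740, for L31, was at 505 and 527 in wild type 1b and 2 and at 490.4 and 463 in 35S:miR396 1 and 2, a log2 difference of -0.12 with a 95% interval from -0.51 to 0.28. AT2G17360, for the small-subunit protein S4, was at 1023 and 985 in wild type 1b and 2 and at 973 and 908 in 35S:miR396 1 and 2, a log2 difference of -0.10 with a 95% interval from -0.47 to 0.28. In these 3 genes, too, the genotypes did not overlap, but the gap between the nearest arrays was small.

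These 4 genes were the only members of the 26 that lay apart by genotype after centring, all lower in 35S:miR396, and 0 members lay higher. Among all probe sets tested, 10.7% were lower and 9.18% were higher on both 35S:miR396 arrays, beside 4 of 26 members (15.4%) lower. Compared within each number, 15 of 26 members (57.7%) were lower in 35S:miR396 both times, where 26% of all probe sets were. Higher both times were 2 members (7.69%), AT3G09630 and AT4G34670, where 23.8% of all probe sets were. AT4G34670 was higher by only 0.00014 log2 units in number 2. Most members are bright, and 22 of the 26 had a mean scaled signal of at least 1000. Of the 1591 probe sets at that level, 10.3% were lower and 3.96% higher on both 35S:miR396 arrays. Within each number, 29.5% of these were lower and 15% higher both times. With quantile normalization in place of centring, 13 members were lower in both numbers and 7 were lower on both arrays. These 7 were the 4 above with AT3G49910, AT5G20290 and AT5G15200, while AT3G07110 was higher. Under that scaling 25.4% of all probe sets were lower in both numbers, 10.5% lower on both arrays and 9.5% higher. Of the probe sets at or above 1000, 23.8% were then lower in both numbers, 7.04% lower on both arrays and 7.35% higher. The 7 of 26 (26.9%) were a larger share than the 4 with centring. No test was made of these counts.

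**Figure D1:**
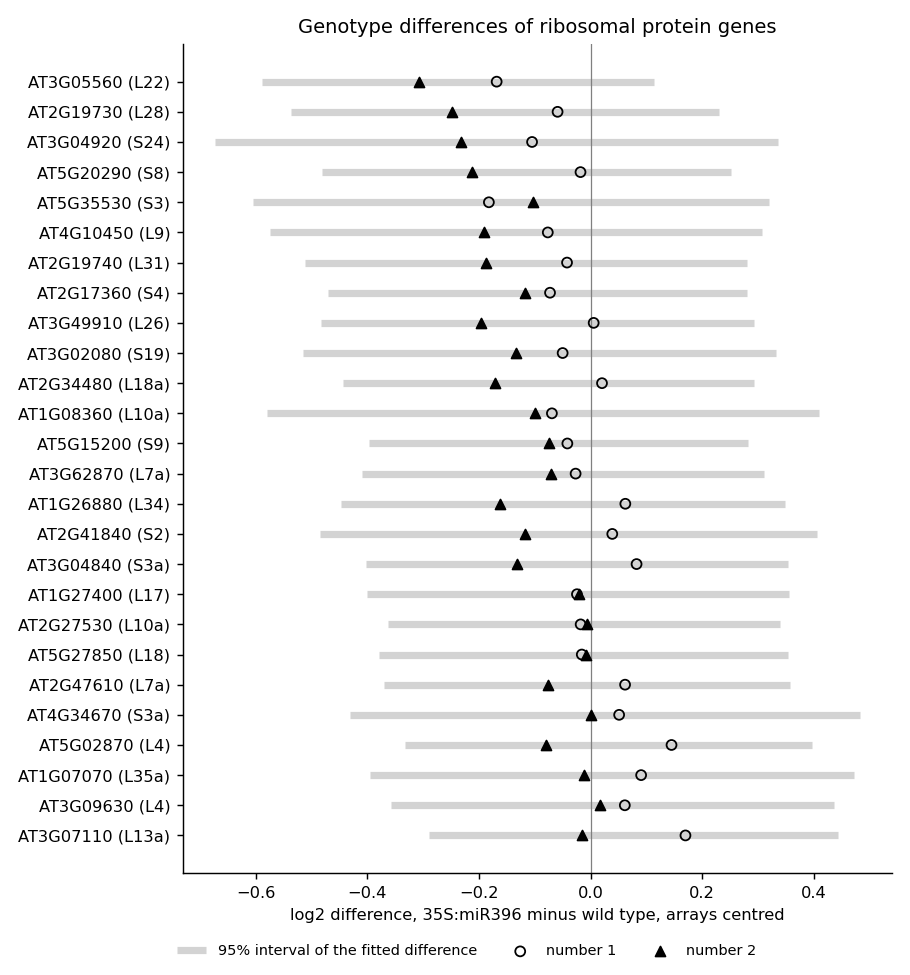
Log2 difference of 35S:miR396 from wild type for 26 ribosomal protein genes, with arrays centred on their medians and genes ordered by moderated t. Circles show number 1, triangles number 2 and bars the 95% interval of the difference fitted over both (n = 2 arrays a genotype). All 26 bars reach across 0, and 24 of the 26 triangles lie below 0.

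The genotype difference was larger in number 2 than in number 1, a contrast that was not tested. In number 1 the median over the 26 genes was -0.02 with 15 genes below 0, and in number 2 it was -0.11 with 24 of 26 below 0. Over all probe sets tested the medians were 0.01 and -0.02, with 47.9% below 0 in number 1 and 54.4% in number 2. Without 35S:miR396 2 the members' median over the remaining arrays was 0.018, and 18 of the 26 genes changed the sign of their difference when 1 array or another was left out. Array 35S:miR396 2 was the brightest before scaling, and on it other bright probe sets stood low too. The 1591 probe sets with a mean scaled signal of at least 1000 had a median of -0.06 in number 2, and after quantile normalization 0.00, while the members then had -0.06. The part of this level dependence in the members' values was not tested. AT3G04920, for S24, differed between the genotypes by -0.10 in number 1 and -0.23 in number 2, AT5G20290, for S8, by -0.02 in number 1 and -0.21 in number 2, and AT4G10450, for L9, by -0.08 in number 1 and -0.19 in number 2. AT5G35530, for S3, had its larger difference in number 1, with -0.18 in number 1 and -0.10 in number 2.

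At the upper end, AT3G07110, for L13a, was at 1728 and 1902 in wild type 1b and 2 and at 1944 and 1880.4 in 35S:miR396 1 and 2. Wild type 1b alone stood low there, and the log2 differences were 0.17 in number 1 and -0.02 in number 2. AT3G09630, for L4, had a fitted difference of 0.04, AT1G07070, for L35a, one of 0.04 (from 194 to 209 over the arrays), AT5G02870, the other measured L4 gene, one of 0.03 and AT4G34670, for S3a, one of 0.03. AT2G47610, for L7a, was at -0.01. All of these are smaller than their intervals. The steadiest gene across the arrays was PGY1, which encodes a protein L10a and is named for its mutant's leaf outgrowths in a sensitised background. It was at 1889 and 1812 in wild type 1b and 2 and at 1865 and 1803 in 35S:miR396 1 and 2, with genotype differences of -0.02 in number 1 and -0.01 in number 2.

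The members varied little from one another. Across the 26 genes the SD of the genotype difference was 0.08 in number 1 and 0.09 in number 2. It was 0.36 and 0.35 over all probe sets tested and 0.20 and 0.15 over those with a mean scaled signal of at least 1000. Such a narrow range was not particular to the members. The 9 tested plastid ribosomal protein genes had 0.09 and 0.12, and the 5 tested green tissue genes 0.09 and 0.04. Across genes, the differences in number 1 and in number 2 had a Pearson r of 0.51 over the 26 members and of 0.04 over all probe sets tested, also with the lowest 60% by signal left out. These are descriptions over genes read on the same 4 arrays, and genes are not independent replicates.

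**Figure D2:**
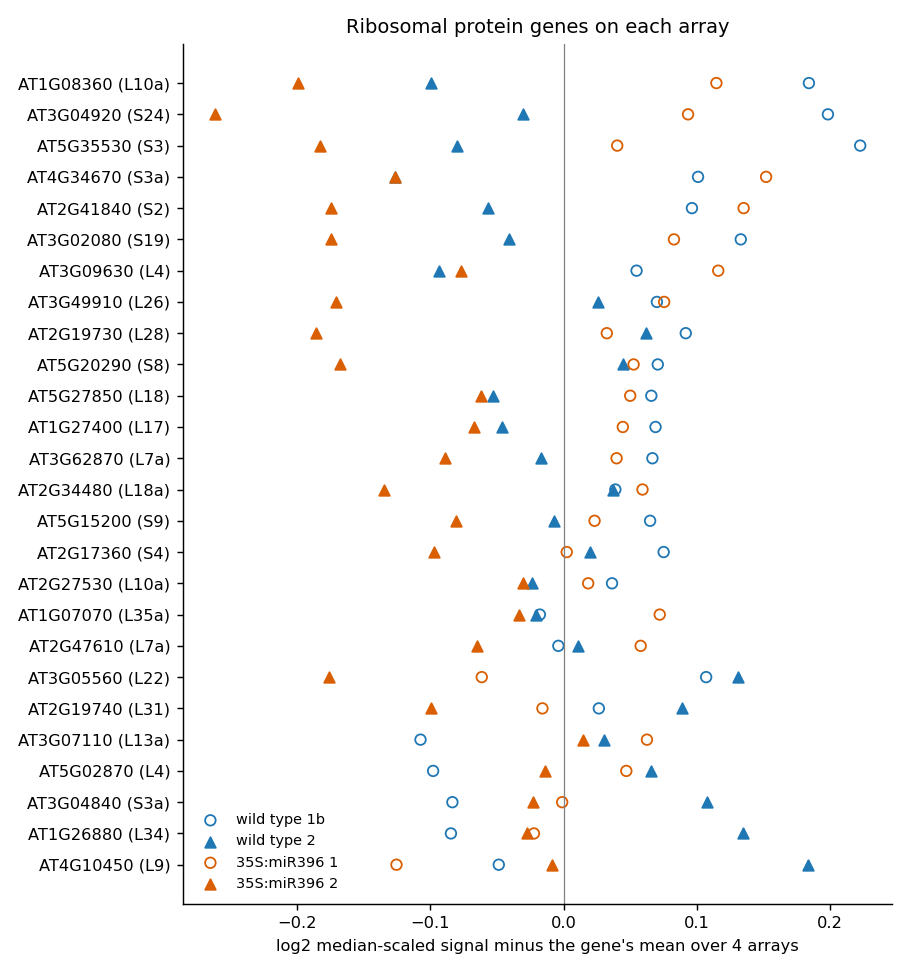
Scaled signal of each of 26 ribosomal protein genes on the 4 arrays, as log2 minus the gene's own mean, in order of the difference between numbers. Open circles are number 1 and filled triangles number 2, in blue for wild type and orange for 35S:miR396; for AT4G34670 both triangles coincide. In the upper rows both triangles lie left of both circles, by up to 0.30 on average for AT1G08360.

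The arrays lay further apart by number than by genotype: over all probe sets tested the SD of the difference was 0.52 by number and 0.26 by genotype, and over the 26 members 0.12 and 0.07. After centring, most of the ribosomal protein genes stood lower in number 2. The median log2 difference of number 2 from number 1 was -0.10 over the 26 genes, from -0.05 in wild type and -0.12 in 35S:miR396, against -0.04 over all probe sets tested. Both arrays of number 2 lay below both of number 1 in 16 of 26 members (61.5%) and above them in 1, where 34.1% and 26.9% of all probe sets did so. Of the probe sets with a mean scaled signal of at least 1000, 41% lay below and 27.1% above. Number 2 was below number 1 within both genotypes in 18 members (69.2%), against 39.7% of all probe sets and 45.1% of those at or above 1000. None of these differences was tested, since number is no condition of the study. The shift rests on the scaling: with quantile normalization the median was -0.03, and 10 members (38.5%) were lower on both number-2 arrays, near the 31.6% of all probe sets. On the deposited signals it was 0.10, where the median of all probe sets moved to 0.16. There 0 members were lower, against 12.8% of all probe sets, and 6 (23.1%) were higher, against 38%. Relative to the median of all probe sets the members stood at -0.06 with centring or on deposited signals, but at -0.01 with quantile normalization. Relative to the probe sets at or above 1000 the 26 members, of which 22 reach that level, stood at -0.05 under each of these scalings. The median of those 22 was -0.115 with centring and -0.048 with quantile normalization. For all probe sets at that level it was -0.053 and 0.024.

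The shift was larger in the 9 measured genes of the small subunit. The median number difference was -0.22 over the 9 small-subunit genes and -0.05 over the 17 large-subunit genes, and the small subunit had the lower median within each genotype, at -0.15 against 0.00 for wild type and at -0.22 against -0.11 for 35S:miR396. With quantile normalization the medians were -0.16 and -0.01, and on deposited signals -0.02 and 0.14. No test was made of the difference between the subunits, whose ranges overlap. The 5 shared probe sets, left out here, include some for small-subunit proteins (S3, S16 and S23). Their number differences with centring all lay between -0.10 and 0.08, so none was near the small-subunit median.

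Of the 6 genes with the most negative number difference, 5 encode small-subunit proteins. AT3G04920, for S24, was at 1256 and 1072 in wild type 1b and 2 and at 1168 and 913 in 35S:miR396 1 and 2, which is -0.23 in wild type and -0.35 in 35S:miR396 on the log2 scale. AT5G35530, for S3, a protein at the entry of the messenger channel, was at 2749 and 2229 in wild type 1b and 2 and at 2423 and 2076 in 35S:miR396 1 and 2. AT4G34670, for S3a, was at 2037 and 1740.2 in wild type 1b and 2 and at 2110.5 and 1740.4 in 35S:miR396 1 and 2. In each of these, both number-2 arrays lay below both number-1 arrays. AT2G41840, for S2, was at 2639 and 2374 in wild type 1b and 2 and at 2711 and 2187 in 35S:miR396 1 and 2, and AT3G02080, for S19, at 3046 and 2700.2 in wild type 1b and 2 and at 2942 and 2461 in 35S:miR396 1 and 2. The differences of S2 were -0.15 in wild type and -0.31 in 35S:miR396 and those of S19 -0.17 in wild type and -0.26 in 35S:miR396, again without overlap of the numbers. The sixth of them, and the lowest of all, was AT1G08360, for the large-subunit protein L10a. It was at 2120.2 and 1742 in wild type 1b and 2 and at 2021 and 1625 in 35S:miR396 1 and 2, with differences of -0.28 in wild type and -0.31 in 35S:miR396. These 6 genes were lower in number 2 with quantile normalization as well.

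The other small-subunit genes were closer to 0. AT5G20290, for S8, differed between numbers by -0.03 in wild type and -0.22 in 35S:miR396, AT5G15200, for S9, by -0.07 in wild type and -0.10 in 35S:miR396 and AT2G17360, for S4, by -0.06 in wild type and -0.10 in 35S:miR396. Among large-subunit genes, AT3G49910, for L26, had -0.04 in wild type and -0.25 in 35S:miR396, and AT2G34480, for L18a, had -0.0016 in wild type and -0.19 in 35S:miR396. In L26 and L18a the larger difference was that of the 35S:miR396 arrays. AT5G27850, for L18, with -0.12 in wild type and -0.11 in 35S:miR396, and AT1G27400, for L17, with -0.12 in wild type and -0.11 in 35S:miR396, shifted alike in both genotypes.

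At the other end stood AT4G10450, for L9, the only member higher on both number-2 arrays after centring. It was at 515 and 605 in wild type 1b and 2 and at 489 and 529.8 in 35S:miR396 1 and 2, which is 0.23 in wild type and 0.12 in 35S:miR396, and it was higher with quantile normalization too, as then were AT5G02870, AT3G04840 and AT1G26880. AT1G26880, for L34, was at 1319.8 and 1536 in wild type 1b and 2 and at 1378 and 1373 in 35S:miR396 1 and 2, with number differences of 0.22 in wild type and -0.01 in 35S:miR396. AT3G04840 (S3a), AT5G02870 (L4) and AT3G07110 (L13a) had mean differences of 0.08, 0.05 and 0.04, positive in wild type and negative in 35S:miR396. AT2G19740 (L31) was at -0.01.

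**Figure D3:**
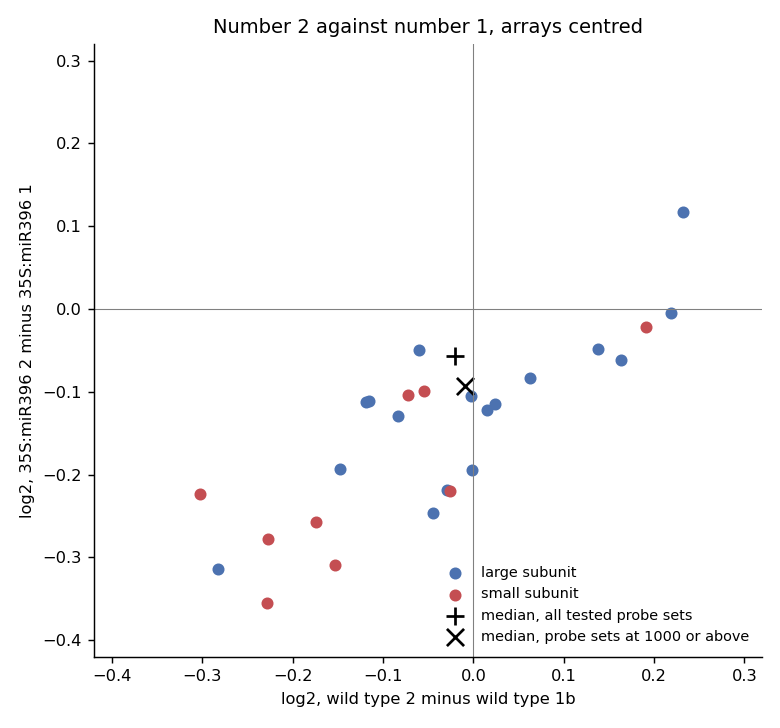
Log2 difference of number 2 from number 1 in wild type (horizontal) and in 35S:miR396 (vertical) for 17 large-subunit genes (blue) and 9 small-subunit genes (red), with arrays centred. The plus marks the median of all probe sets tested and the cross that of probe sets with a mean scaled signal of at least 1000. In the lower left quadrant lie 18 of the 26 genes, 8 of them of the small subunit.

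Across the 26 genes the number differences in wild type and in 35S:miR396, which share no array, had a Pearson r of 0.82. Over all probe sets tested r was 0.63, and over the 9099 that remain with the lowest 60% by signal left out, where all members remain, it was 0.81, close to that of the members. The points of each are genes of the same libraries under the same scaling, and these are descriptions. The SD across members was 0.15 in wild type and 0.11 in 35S:miR396, against 0.58 and 0.57 over all probe sets tested. Over those at or above 1000 it was 0.46 and 0.44. The ribosomal protein genes thus lay within a narrower range than bright probe sets at large, but other lists of bright genes did too. The 9 tested plastid ribosomal protein genes had 0.11 and 0.07, and the 5 tested green tissue genes 0.15 and 0.10.

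Genes for the same protein can be compared on the same arrays, because a factor per array drops out of the difference between them. Of the families on the list, 4 had 2 measured genes: L10a, L4, L7a and S3a. The S3a genes differed most. AT4G34670 was lower on both number-2 arrays, while AT3G04840 was at 1978 and 2258 in wild type 1b and 2 and at 2094 and 2062 in 35S:miR396 1 and 2. The number difference of AT3G04840 was 0.19 in wild type and -0.02 in 35S:miR396, and that of AT4G34670 was -0.23 in wild type and -0.28 in 35S:miR396, so AT3G04840 stood higher by 0.42 and 0.26 log2 units. For L10a, PGY1 moved less than AT1G08360, with -0.06 in wild type and -0.05 in 35S:miR396 against -0.28 in wild type and -0.31 in 35S:miR396, which leaves PGY1 higher by 0.22 and 0.26.

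For L4, a protein that lines the exit tunnel, AT3G09630 was at 2293 and 2069 in wild type 1b and 2 and at 2392 and 2092 in 35S:miR396 1 and 2 and AT5G02870 at 2679 and 3000.4 in wild type 1b and 2 and at 2963 and 2839 in 35S:miR396 1 and 2. The number difference of AT5G02870 was 0.16 in wild type and -0.06 in 35S:miR396, and that of AT3G09630 was -0.15 in wild type and -0.19 in 35S:miR396, so AT5G02870 stood higher by 0.31 and 0.13. The L7a genes stayed together: AT3G62870 was at 2660.4 and 2510.1 in wild type 1b and 2 and at 2611 and 2388 in 35S:miR396 1 and 2 and AT2G47610 at 1609 and 1626 in wild type 1b and 2 and at 1679.6 and 1543 in 35S:miR396 1 and 2, and their number differences lay 0.10 and 0.01 apart. With quantile normalization the mean gap between the genes of a pair was 0.33 for S3a, 0.24 for L10a, 0.25 for L4 and 0.07 for L7a, against 0.34, 0.24, 0.22 and 0.05 with centring. Between genotypes the genes of a pair differed less, by -0.13 to 0.09 within a number. With 2 arrays a number these gaps were not tested, and near-identical transcripts can hybridise to each other's probes, which was not measured.

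**Figure D4:**
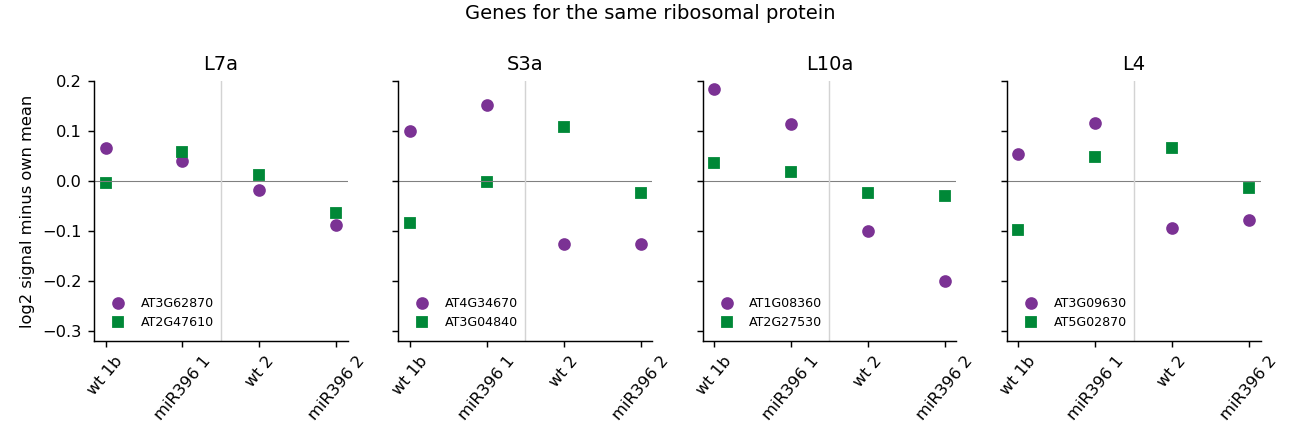
Log2 scaled signal minus the gene's own mean on the 4 arrays for the 4 ribosomal proteins with 2 measured genes each. The vertical line parts number 1 from number 2. In S3a, L10a and L4 the purple gene (AT4G34670, AT1G08360, AT3G09630) lies higher in number 1 and lower in number 2 than the green gene, and the L7a genes lie close together.

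Other genes of translation were read from lists of known factors, of which 0 genes passed between the genotypes in limma in either direction. Of 28 listed ribosome biogenesis factors, which process ribosomal RNA and assemble subunits in the nucleolus, 14 were tested. Their median number difference was 0.13 with 3 of 14 below 0, and it was 0.16 with quantile normalization and 0.33 on deposited signals, where the ribosomal protein genes had -0.03 and 0.10. Scaled signals of the 14 factors lay between 20.7 and 856.5, while 22 of the 26 ribosomal protein genes had a mean of at least 1000. The difference between these lists, which also differ in signal level, was not tested. Their median genotype difference was 0.00 with 7 of 14 below 0. The largest number differences were 0.73 for AT3G10530, at 49.8 and 109.8 in wild type 1b and 2 and at 72 and 90.1 in 35S:miR396 1 and 2, 0.52 for AT5G18180, for a GAR1 protein of the particles that modify ribosomal RNA, and -0.51 for AT1G15420. AT5G18180 was at 20.7 and 42.2 in wild type 1b and 2 and at 28.0 and 28.4 in 35S:miR396 1 and 2, a low signal at which folds are imprecise.

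Translation initiation factors, which bring the messenger to the small subunit, had 9 tested genes of 29, with a median number difference of 0.08 and 3 of 9 below 0 (0.12 with quantile normalization). EIF4A-2, an RNA helicase of initiation, was at 1175 and 1578 in wild type 1b and 2 and at 1145 and 1437 in 35S:miR396 1 and 2. AT5G54940, of the SUI1 family that selects start codons, was at 6124 and 4523 in wild type 1b and 2 and at 6866 and 4578 in 35S:miR396 1 and 2, and AT1G54290 of the same family at 302 and 402 in wild type 1b and 2 and at 314 and 402 in 35S:miR396 1 and 2, with number differences of -0.51 and 0.38. The median genotype difference of the 9 initiation factors was -0.04 with 5 of 9 below 0. Of 11 elongation factors 2 were tested. AT5G19510, for a subunit of the factor that recharges the elongation GTPase, was at 2574 and 2550 in wild type 1b and 2 and at 2628 and 2248 in 35S:miR396 1 and 2, and AT5G12110 was at 69.3 and 54.6 in wild type 1b and 2 and at 57.9 and 70.6 in 35S:miR396 1 and 2. RAPTOR1 and RAPTOR2, partners of the TOR kinase that stimulates ribosome production, were the 2 tested of 8 genes of the TOR and S6 kinase list. RAPTOR1 had a number difference of -0.19 and RAPTOR2 one of 0.66, the latter at low scaled signals from 40.9 to 70.

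Proteins of the plastid ribosome, which translates plastid transcripts, had 9 tested genes of 35. All 9 had a number difference below 0 after centring, with a median of -0.12 (-0.02 with 6 of 9 below 0 under quantile normalization, 0.08 with 0 below 0 on deposited signals). The centred median was -0.03 for wild type against -0.19 for 35S:miR396. The largest were -0.19 for AT1G29070, -0.18 for AT2G43030 and -0.16 for AT3G54210. Their genotype difference was 0.08 in number 1, with 2 of 9 below 0, and -0.14 in number 2, with 8 of 9 below 0. In number 2 the plastid and cytosolic ribosomal protein genes thus had like values, and these plastid genes are bright too, at 1382 or more on every array.

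**Figure D5:**
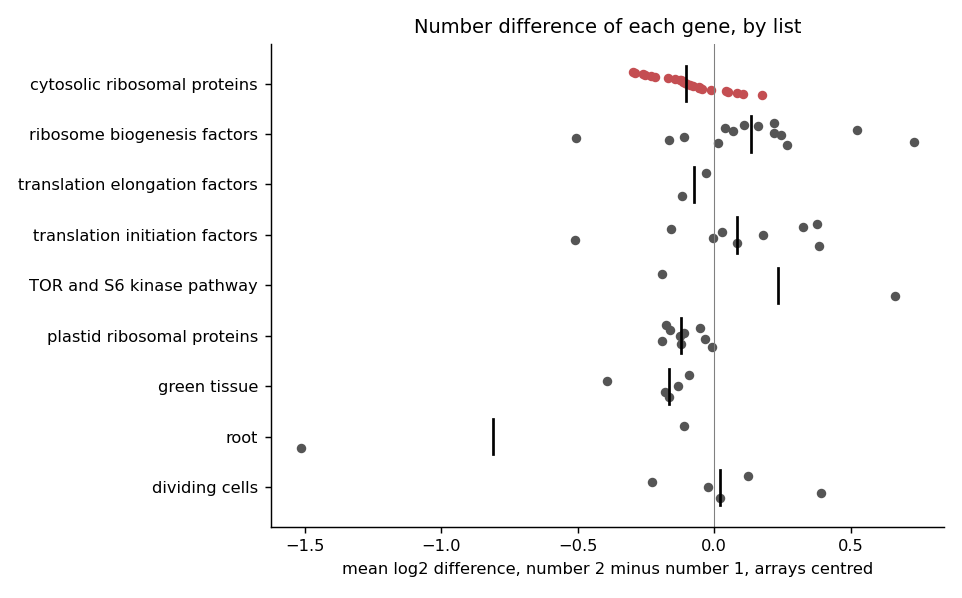
Mean log2 difference of number 2 from number 1, arrays centred, for each tested gene of the cytosolic ribosomal protein list (red) and of the other lists (grey), with the median of each list as a black line. Cytosolic ribosomal protein genes lie between -0.30 and 0.17, and ribosome biogenesis factors between -0.51 and 0.73.

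Markers of tissue and RNA quality were read beside these values. The 5 tested of 29 green tissue genes (LHCB4.1, LHCB4.2, PSAE-1, PSBW and RCA) had scaled signals from 6660 to 13835. Their median number difference was -0.16 after centring with all 5 below 0 (LHCB4.2 -0.39, PSBW -0.18, RCA -0.16), but 0.04 with quantile normalization and 0.03 on deposited signals. Of 16 root genes 2 were tested. NAI2, of the endoplasmic reticulum bodies of seedlings and roots, was at 577 and 238 in wild type 1b and 2 and at 745 and 221 in 35S:miR396 1 and 2, and PYK10, a glucosidase of these bodies, at 1289.6 and 1192 in wild type 1b and 2 and at 1406 and 1308 in 35S:miR396 1 and 2. Of 23 genes of dividing cells 5 were tested, at low scaled signals from 27.4 to 149.4. Their median number difference was 0.02 (PRL 0.39, AUR3 -0.23, AUR1 0.13), and -0.01 with quantile normalization. Their median genotype difference was -0.07. The control probe set of 25S ribosomal RNA stood at 188 on wild type 1b and at 73.2, 85.7 and 65.1 on wild type 2 and 35S:miR396 1 and 2. Ratios of 3' to 5' signal lay between 1.76 and 2.07 for actin, between 0.889 and 1.05 for GAPDH and between 1.27 and 1.41 for ubiquitin. The part of any of these in the members' values was not tested. Without wild type 1b, both number-2 arrays lay below 35S:miR396 1 in 18 of 26 members, against 44.9% of all probe sets tested. That order is met more easily than with all arrays, and wild type 2 is there compared across genotypes.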

How the data were processed

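Transcript levels of 10-day-old seedlings were measured on 4 Affymetrix arrays. The deposited table holds intensity values, probe set signals on a linear scale. For their calculation the submitters' processing notes name MAS5, so the deposited intensity values are the authors' summaries of the probes. MAS5 corrects background and combines the probes of a set. Its version and scaling target are not given in the sources used here.

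From 22810 probe sets, 64 controls were left out. Of the rest, 13513 had 1 gene in the platform annotation, 503 several and 8730 none, and loci came from RefSeq names of TAIR10.1. Values at or under 0 (6 in all) were set to 0.1 before log2 was taken, each array was centred on its median, and the lowest 30% by mean were left out, which kept 15923. Genotypes, taken from the titles, entered a limma fit (version 3.58.1, R 4.3.3; trend on mean level, two-sided, no block, prior degrees of freedom 2.82), with Benjamini-Hochberg adjustment over all probe sets tested. The script was tested on simulated data. Python 3.11.15, pandas 2.3.3, numpy 2.4.6 and matplotlib 3.10.9 made tables and figures. The number of arrays limits the precision.

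Members and lists were chosen with earlier results of these data known. Named were the 6 members at either end by moderated t and by number difference, genes that share a family, well-known mutants, and up to 3 genes of each other list by number difference. AT2G17360, AT3G49910, AT2G34480, AT5G27850, AT1G27400 and AT5G15200 were named after their values were seen. Promoter motifs and protein identities, planned for the sequences, were not run, as no sequence was at hand. Alternatives were quantile normalization, deposited signals, other filters, a pseudocount of 2.4, no trend, a replicate block, and arrays left out. The signal level of 1000, the lists under each scaling and the 5 shared probe sets were added after the values were seen.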

Additional observations from a re-analysis of the deposited data

How the results depend on the processing

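The count of 0 members past the threshold between genotypes held under deposited signals, quantile normalization, no filter, the lowest 60% left out, a pseudocount, no trend, an adjusted p of 0.1, both fits with a replicate block and each array left out in turn. Over all probe sets the count was 0 under these, except that the replicate block gave 18 (and 0 with quantile normalization). The labels do not state that a number pairs the arrays, and 2 pairs are too few to establish it. Number differences in the 2 genotypes had an r of 0.63 across probe sets, and of 0.81 with the lowest 60% left out. Whether a number marks a shared batch was not tested. The lowest adjusted p of a member with the block was 0.852. The median genotype difference of the members, -0.05, lay between -0.11 and 0.02 with arrays left out, and its sign turned (to 0.018) without 35S:miR396 2. The median number difference, -0.10, turned to 0.10 on deposited signals and was -0.025 with quantile normalization, as the scaling moves all probe sets. Members apart by genotype numbered 4, where 10.7% of all probe sets were lower and 9.18% higher on both arrays. With quantile normalization they numbered 8, where 10.5% were lower and 9.5% higher. Compared within numbers they numbered 17, where 26% were lower and 23.8% higher both times. With arrays left out they numbered 10 to 19, since fewer arrays must then be in order. The share of all probe sets apart with arrays left out was not counted. Members lower on both number-2 arrays numbered 16, against 34.1% of all probe sets. On deposited signals they numbered 0, against 12.8%, and with quantile normalization 10, against 31.6%. With arrays left out they numbered 16 to 21, where the share of all probe sets also rose, to between 42.9% and 45.2%. With the 5 shared probe sets the medians were -0.06 for genotype and -0.09 for number. Reading each locus by all of its probe sets changed nothing, as each had 1. Counts of members within numbers, the alternatives to the count by number and the shared probe sets were added after the data were seen. Only 2 arrays of each genotype were read. All members ranked above the filter on low signals.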
